A study of Mus musculus with 19 samples.

Results

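Genic extrachromosomal circular DNA (eccDNA) was examined on the cadherins, protocadherins and catenins, the gene families that build and anchor calcium-dependent contacts between cells. The members were all genes of the deposited table whose symbol begins with *Cdh*, *Pcdh*, *Ctnna*, *Ctnnb* or *Ctnnd*. The rule rests on names and uses no measured value, though it was chosen with earlier results of these data known. This gave 65 genes of 8336. Of these, 34 belong to the clustered protocadherins and 31 lie outside these clusters. In the clusters, the 32 alpha and gamma genes overlap one another and the 2 beta genes do not. EccDNA had been purified from cervical spinal cord, with 1 library per animal, of 9 male mutants called B6.Cg-Tg(SOD1*G93A)1Gur/J (ALS) and 10 male C57BL/6J mice (control). The mutants constitutively overexpress a human SOD1 transgene with the G93A mutation and were taken up once they showed motor symptoms, at 18 to 21 weeks of age. Mutants without timely symptoms had been left out, so that the ALS group was selected on its phenotype, and the controls were matched by age. The question of the comparison was which genes give rise to more circles in the diseased cord than in the healthy one.

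Classical cadherins span the membrane once and bind their own kind on the neighbouring cell in the presence of calcium. Their cytoplasmic tail carries beta-catenin and a catenin of the p120 or delta type, and alpha-catenin connects this complex with actin. In the spinal cord, combinations of type I and type II cadherins take part in sorting motor neurons into pools, and the clustered protocadherins give single neurons a surface identity by the choice of alternative first exons.

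Each value is a log2(PpGC + 1), where PpGC stands for produced per gene circles. To obtain it, the reads that are split across the junction of a circle had been summed over the eccDNAs that touch a gene, and the sum had been weighted by the ratio of the longest gene to the gene in question. A split read therefore weighs more on a short gene, and values of different genes are set side by side per length. When the weight was undone, all 197 member values above 0 gave whole numbers of split reads within a tolerance of 0.02. The lowest was 2, the minimum required of an eccDNA, so that a value of 0 says that no circle with 2 or more split reads was found. The values are weighted sums of split reads on DNA circles and do not measure expression, so that the tissue could not be checked by marker genes. In bulk tissue, more circles per cell and more cells with circles cannot be told apart. Since rolling circle amplification copies each circle many times, split reads do not stand for separate molecules and carry no counting interval here.

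The samples differed in their load of circles. An eccDNA was found on 1301 ± 459 genes (SD, n = 9) per ALS sample and on 243.4 ± 207.9 genes (SD, n = 10) per control sample, with 74016 to 391394 and 3583 to 123387 split reads on genes. The number of sequenced reads per library is not part of the table. Load moved with the group, and the differences of the members named by rule are therefore also given, towards the end, with this number as a covariate.

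Across the families, most members had a higher mean in ALS, as did most genes of the table. For 60 of the 65 members (92.3%) the ALS samples had the higher mean log2 PpGC, compared to 86.5% of all genes of the table. Of these 60, 31 are clustered protocadherins, most of which repeat the same few circles. Without ALS 5 the count of 60 was 42. The median difference of means, ALS minus control, was 2.09 over the members and 1.19 over all genes. With load as a covariate, 37 members (56.9%) were higher in ALS, against 52.8% of all genes, and the median difference was 1.20 over the members and 0.34 over all genes. An eccDNA was present in 171 of 585 ALS values (29.2%) and in 26 of 650 control values (4.00%) of the members, while the shares over all genes were 15.6% and 2.92%. Where an eccDNA was present, the members had a median of 8 split reads in ALS and 9 in controls, against 7 and 7 over all genes. These medians include clustered genes that repeat the same circles. Over the 31 members outside the clusters they were 12.5 in ALS and 8 in controls, and over the clustered protocadherins 4 and 42, the latter from control 2 alone.

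By the methods' t-test, taken two-sided over the whole table, 4 members met both thresholds for higher values in ALS, a difference of means above 1 and a p under 0.01. These were the classical cadherins *Cdh4* and *Cdh12*, the lipid-anchored *Cdh13* and the long protocadherin *Pcdh15*. They make up 6.15% of the members, against 1.33% of all genes that passed both thresholds (111 of 8336). No member was lower in ALS by these thresholds, where the share over all genes was 0%. The count was also 0 at an unadjusted p under 0.05 and by limma's moderated test. At an unadjusted p under 0.05, 10 members were higher, against 4.2% of all genes. With the exact permutation test in its place the same 4 members passed, against 0.816% of all genes. *Cdh4* was the 1 member whose p in the methods' t-test stayed under 0.05 after Benjamini-Hochberg adjustment over the table, against 0.072% of all genes. With load as a covariate, none of the 4 met both thresholds. The paper's own list of genes with more eccDNA in ALS is not the same. It holds *Cdh4*, *Cdh13*, *Cdh18*, *Ctnna3*, *Ctnnd2*, *Pcdh7* and *Pcdh11x*, and neither *Cdh12* nor *Pcdh15*. The reason was not tested. The heat map shows every value of the 31 genes outside the clusters, the 4 that passed among them.

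**Figure D1:**
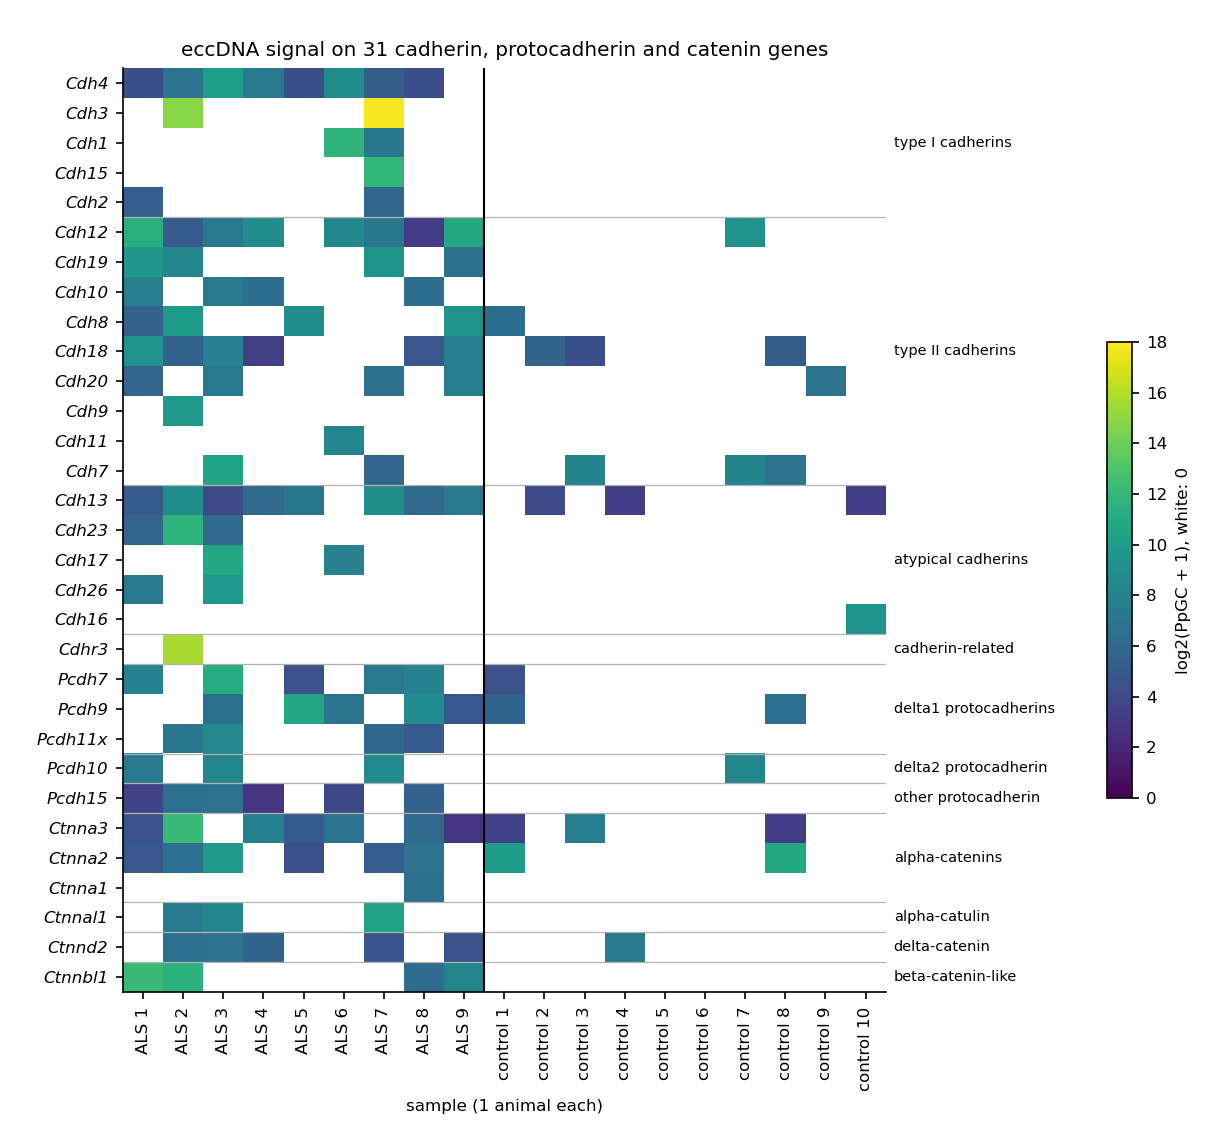
Heat map of log2(PpGC + 1) for the 31 members other than clustered protocadherins (rows, grouped by role) in the 9 ALS and 10 control samples (columns, 1 animal each), with white for 0. Coloured cells fill 114 of 279 ALS values (40.9%) and 23 of 310 control values (7.42%), and the rows of *Cdh4*, *Cdh12* and *Cdh13* are coloured in 8 of 9 ALS samples.

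Among the type I classical cadherins, which carry the strongest homophilic adhesion, all 5 annotated genes were in the table, and none held an eccDNA in a control sample, a pattern found in 75% of all genes. *Cdh4* encodes R-cadherin, named after the retina. It lies on chromosome 2 (179442431 to 179899373, mm10) and is 457 kb long. In ALS, its log2 PpGC had a lowest value of 0, a median of 5.32 and a highest value of 10.04. All 10 control samples were at 0, so that the ALS sample without a circle, ALS 9, was the only one to fall among them. These values rest on 2, 12, 108, 17, 2, 46, 4 and 2 split reads in ALS 1 to ALS 8. In 3 of the samples the signal was thus at the minimum of 2 split reads. The means were 5.72 ± 2.97 (SD, n = 9) and 0 (n = 10), with an exact permutation p of 0.000119 (two-sided) which was 0.199 after Benjamini-Hochberg adjustment. In the methods' t-test the adjusted p was 0.0196.

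The other type I genes were occupied in 1 or 2 ALS samples each, and their differences did not pass the thresholds. *Cdh2*, which encodes the N-cadherin of neural tissue, held 2 split reads in ALS 1 and 3 in ALS 7, a difference of 1.26 (exact permutation p = 0.211). *Cdh3*, the gene of P-cadherin, held 2436 split reads in ALS 7, the largest number on any member, and 292 in ALS 2. Its neighbour *Cdh1*, the gene of epithelial E-cadherin, starts 46.1 kb behind the end of *Cdh3* on chromosome 8. It had 2 split reads in ALS 7 and 52 in ALS 6, so that at most 2 split reads can belong to circles that touch both genes. *Cdh15*, the M-cadherin of muscle, held 17 split reads in ALS 7 only.

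Of the 13 annotated type II classical cadherins, a group that binds across partly shared partners and marks neuron classes, 9 were in the table, and 8 of these had a higher mean in ALS. *Cdh12*, on chromosome 15 (20449265 to 21589533) and 1140 kb long, had the largest difference of all members. Its ALS values ran from 0 over a median of 7.18 to 11.37. In controls, 9 samples were at 0 and control 7 was at 9.16. ALS 5 alone lacked a circle, and the value of control 7 was exceeded by ALS 1 and ALS 9. The means were 6.89 ± 3.66 (SD, n = 9) and 0.92 ± 2.90 (SD, n = 10), a difference of 5.98 (exact permutation p = 0.00234). Split reads on *Cdh12* reached 681 in ALS 1 and 495 in ALS 9, compared to 147 in control 7.

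Part of the *Cdh12* signal can be placed within the gene. The annotated transcript *Gm49685* covers the first 46.5% of *Cdh12*, and an eccDNA in this stretch enters both values. All 147 split reads of control 7, all 37 of ALS 3 and both of ALS 8 were also counted for *Gm49685*, as were 96 of 116 in ALS 4 and 28 of 34 in ALS 7. In ALS 9 the number was 15 of 495. In ALS 1, ALS 2 and ALS 6 *Gm49685* was at 0, so that their circles lie in the remaining stretch of *Cdh12*. The circles of the 8 ALS samples were therefore not of 1 location.

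*Cdh10*, *Cdh9* and *Cdh18* flank *Cdh12* on chromosome 15, in a stretch of 6746 kb from *Cdh9* to *Cdh18*. *Cdh18* had ALS values from 0 over a median of 4.90 to 9.25. In controls it ranged from 0 to 5.75, with circles in control 2, control 3 and control 8. The difference was 2.76 (exact permutation p = 0.0657), and 3 ALS samples and 7 control samples were at 0. *Cdh10* held an eccDNA in ALS 1, ALS 3, ALS 4 and ALS 8, between 6.52 and 7.83, and in no control sample. Its difference of 3.13 had an exact permutation p of 0.0325, above the threshold of 0.01. With load as a covariate the differences of *Cdh18* and *Cdh10* turned, to -2.73 and -1.34. *Cdh9* was occupied in ALS 2 only.

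On chromosome 1, *Cdh20*, *Cdh7* and *Cdh19* follow each other within 6209 kb, with different patterns. *Cdh19*, known from Schwann cell precursors, was occupied in 4 ALS samples between 6.65 and 9.54 and in no control, a difference of 3.75 (exact permutation p = 0.0325). *Cdh20* was also occupied in 4 ALS samples, between 5.90 and 7.75, and in control 9 at 6.89, which lies within that range (difference 2.39, exact permutation p = 0.0975, and -0.95 with load as a covariate). *Cdh7* was the exception of the group, with circles in 3 controls at 6.83, 8.14 and 8.14 and in 2 ALS samples at 5.84 and 10.51. Its difference was -0.49 (exact permutation p = 0.824), and the 3 control values lay between the ALS values. *Cdh8* on chromosome 8 was occupied in 4 ALS samples, between 5.53 and 9.79, and in control 1 at 6.52, with a difference of 3.06 (exact permutation p = 0.0759). All 8 split reads of control 1 were shared with *Gm45297*, a model of 3.48 kb inside *Cdh8*, which places that circle there. *Cdh11* was occupied in ALS 6 only.

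**Figure D2:**
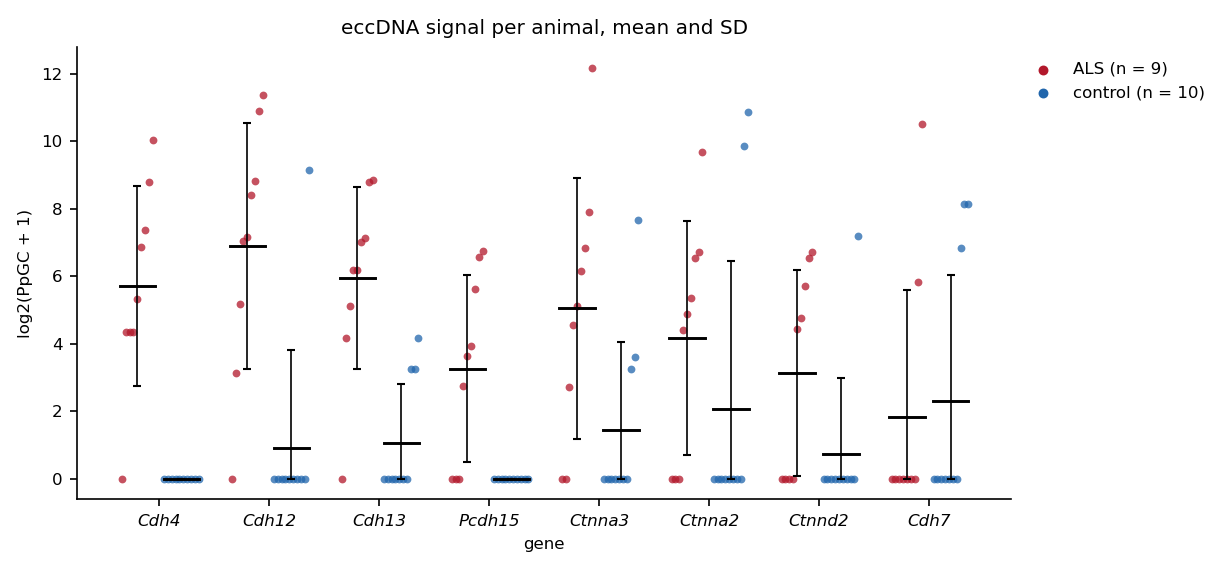
Dot plot of log2(PpGC + 1) per animal for 8 members in ALS (n = 9) and control (n = 10), with the mean as a bar and the SD as a whisker that ends at 0. Controls are all at 0 for *Cdh4* and *Pcdh15*, reach 4.17 for *Cdh13*, and lie above every ALS value for *Ctnna2* in 2 animals.

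The atypical cadherins lack the catenin-binding tail or differ in their ectodomain, and 4 of the 5 had a higher mean in ALS. With load as a covariate, *Cdh13* alone stayed higher, and *Cdh17* (-0.49), *Cdh23* (-1.95) and *Cdh26* (-4.32) turned. *Cdh13* encodes T-cadherin, which has no cytoplasmic part and is held in the membrane by a lipid anchor. It spans 1041 kb of chromosome 8 (118283733 to 119324921). Its ALS values ranged from 0 over a median of 6.20 to 8.86, with only ALS 6 at 0. Of the controls, 7 were at 0, control 4 and control 10 were at 3.25 and control 2 was at 4.17. The lowest ALS value above 0, that of ALS 3, was also 4.17, so that above 0 the groups met at 4 split reads and 7 ALS samples lay higher than every control. The means were 5.95 ± 2.71 (SD, n = 9) and 1.07 ± 1.74 (SD, n = 10), a difference of 4.88 (exact permutation p = 0.000595).

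The remaining atypical genes were seldom occupied. *Cdh23*, whose protein forms the upper part of the tip links of inner ear hair cells, held a circle in 3 ALS samples, with 290 of its 302 split reads in ALS 2. *Pcdh15* encodes the lower part of the same tip links and is described with the protocadherins. *Cdh17* and *Cdh26* were each occupied in 2 ALS samples. *Cdh16*, the cadherin of kidney tubules, was the only member with an eccDNA in a control and in no ALS sample, with 3 split reads in control 10 (difference -0.92, exact permutation p = 1). In the whole table this pattern applied to 10.9% of genes. *Cdhr3*, the 1 cadherin-related gene of the 5 annotated that was in the table, held 666 split reads in ALS 2 and none elsewhere.

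All 5 protocadherins outside the clusters that were in the table had a higher mean in ALS, and 3 of them (*Pcdh7*, *Pcdh10* and *Pcdh11x*) turned to lower with load as a covariate. *Pcdh15* on chromosome 10 (73099342 to 74649737) is 1550 kb long. Its ALS values had a lowest value of 0, a median of 3.64 and a highest value of 6.74, and all controls were at 0. ALS 5, ALS 7 and ALS 9 were at 0 together with the controls. The mean in ALS was 3.25 ± 2.77 (SD, n = 9), with an exact permutation p of 0.00310. With load as a covariate the difference fell from 3.25 to 0.47 (permutation p = 0.757). The numbers were small, with 2 to 37 split reads in the 6 occupied samples, which on a gene of this length gives a low PpGC.

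The delta1 protocadherins have a conserved motif in their cytoplasmic tail that the delta2 group lacks, and 3 of the 4 annotated were in the table. *Pcdh7* was occupied in 5 ALS samples, with a median of 4.48 over all 9 and a highest value of 11.12, and in control 1 at 4.48. The difference was 3.86 (exact permutation p = 0.0263), and with load as a covariate it was -3.70 (permutation p = 0.0553). In ALS 8, all 24 split reads were shared with *Gm42635*, a model of 2.57 kb within the gene. *Pcdh9* was occupied in 5 ALS samples, up to 10.79, and in 2 controls at 5.82 and 6.60, which fell within the ALS range (difference 2.99, exact permutation p = 0.0787). *Pcdh11x* on the X chromosome was occupied in 4 ALS samples, between 5.20 and 8.49, and in no control (difference 2.98, exact permutation p = 0.0325). Of the 5 delta2 genes only *Pcdh10* was in the table. It held 2, 4 and 5 split reads in 3 ALS samples and 4 in control 7, with a difference of 1.86 (exact permutation p = 0.249).

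The catenins connect the cadherins to the cell's interior. All 6 catenin and catenin-like genes of the table had a higher mean in ALS, *Ctnna2* and *Ctnnal1* not so with load as a covariate, and none passed both thresholds. This count of 0 by the methods' t-test became 2 at an unadjusted p under 0.05, with *Ctnna3* and *Ctnnbl1*, and by limma's moderated test *Ctnnbl1* passed. The shares of all genes at these settings were 1.33%, 4.2% and 1.99%. The paper's own list of genes with more eccDNA in ALS does hold *Ctnna3* and *Ctnnd2*. *Ctnna2*, the alpha-catenin of neurons, spans 1098 kb of chromosome 6 (76881637 to 77979699). Its ALS values ranged from 0 over a median of 4.87 to 9.67, with 6 samples above 0. In controls, 8 samples were at 0, control 1 was at 9.86 and control 8 was at 10.87. The groups were thus interleaved, and the highest values were those of 2 controls, with 230 and 464 split reads against at most 202 in ALS. The means were 4.18 ± 3.48 (SD, n = 9) and 2.07 ± 4.38 (SD, n = 10), a difference of 2.10 (exact permutation p = 0.262).

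*Ctnna3*, which encodes the alpha-T-catenin of heart muscle and testis, is with 1574 kb the longest member (chromosome 10, 63430098 to 65003667). Its ALS values ranged from 0 over a median of 5.12 to 12.19, and 7 of 9 samples were above 0. Controls ranged from 0 to 7.67, with 3 samples above 0, all of them within the range of the ALS samples. The highest value, that of ALS 2, rests on 1662 split reads. The difference was 3.60 (exact permutation p = 0.0283), and leaving out each sample gave 2.71 (without ALS 2) to 4.29 (without control 3), with exact permutation p-values of 0.00708 to 0.0581. The p was under 0.01 only without control 3. *Lrrtm3* lies within *Ctnna3* and shared 22 of the 1662 split reads of ALS 2. *Ctnna1*, the widely expressed alpha-E-catenin, held 3 split reads in ALS 8 only, and *Ctnnal1*, alpha-catulin, was occupied in 3 ALS samples.

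*Ctnnd2* encodes the neuronal delta-catenin that binds the juxtamembrane part of the cadherin tail. It spans 857 kb of chromosome 15 (30172593 to 31029341). Its ALS values ranged from 0 over a median of 4.44 to 6.71, with 4 samples at 0. Control 4, the only control above 0, had the highest value of all 19 samples, 7.19. The means were 3.13 ± 3.06 (SD, n = 9) and 0.72 ± 2.27 (SD, n = 10), a difference of 2.41 (exact permutation p = 0.0851). Of the 28 split reads of control 4, 25 fell on circles that touch *4930570B17Rik*, an antisense gene of 29.5 kb within *Ctnnd2*, as did 11 of 20 in ALS 3 and 2 of 10 in ALS 4. *Ctnnbl1*, a beta-catenin-like nuclear protein, was occupied in 4 ALS samples, between 6.45 and 12.22, and in no control (difference 4.26, exact permutation p = 0.0325). Beta-catenin itself (*Ctnnb1*, 31.3 kb) and p120-catenin (*Ctnnd1*, 50.7 kb) had no row in the table.

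The clustered protocadherins contributed 34 members and few circles. Their genes lie on chromosome 18 in an alpha, a beta and a gamma cluster. In the alpha and the gamma cluster each gene has its own first exon and ends with the constant exons that all of them share. For this reason the annotated genes are nested, and 1 circle is counted for many of them. Of the 34, 31 had a higher mean in ALS (91.2%, against 86.5% of all genes), and 12 of these, 11 of them alpha genes, turned to lower with load as a covariate. None passed the thresholds by the methods' t-test or at an unadjusted p under 0.05, against 1.33% and 4.2% of all genes. Their values above 0 came from 4 ALS samples and 1 control sample.

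In the alpha cluster (36930184 to 37187661, 257 kb), 12 genes were in the table, and all their values above 0 came from ALS 1, ALS 3 and ALS 7. ALS 7 had 487 split reads on each gene from *Pcdha1* to *Pcdhac1*, and ALS 3 had 6 on each gene from *Pcdha1* to *Pcdha12*. ALS 1 had 5 on *Pcdha1* to *Pcdha3* and 2 on the genes from *Pcdha4* to *Pcdhac1*. Since all genes of the cluster end at the same place, the last gene that shares a count gives a window for the end of the circles. For ALS 7 this window is the 53.5 kb between the starts of *Pcdhac1* and *Pcdhac2*, and for ALS 3 it is the 69.9 kb between the starts of *Pcdha12* and *Pcdhac1*. In ALS 1, 3 of the 5 split reads belong to circles that end within the 6.54 kb between the starts of *Pcdha3* and *Pcdha4*. The other 2 split reads of ALS 1 fall in the same window as those of ALS 7. *Pcdha11* showed 974 split reads in ALS 7, 2 times those of its neighbour *Pcdha12*, as in ALS 1 and ALS 3. The annotation holds 2 genes of this name, and its row equals the sum over both.

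In the gamma cluster (37661793 to 37841873, 180 kb), 20 genes were in the table. ALS 5 had 2 split reads on each of them from *Pcdhga1* to *Pcdhgc3*, which places the end of the circle in the 8.72 kb before the start of *Pcdhgc4*. Control 2 had 42 split reads on *Pcdhga1*, *Pcdhga2* and *Pcdhga3* and none on the genes that follow, so that its circles end within 5.93 kb. For these 3 genes the mean was lower in ALS, with a difference of -0.37 for *Pcdhga1* (exact permutation p = 1). The 17 other gamma genes were occupied in ALS 5 only, and their higher mean in ALS rests on the same 2 split reads. The 2 beta genes with a row do not overlap each other. Of 22 annotated beta genes, *Pcdhb12* held 477 split reads in ALS 5 and *Pcdhb14* held 412 in ALS 3. With lengths of 3.03 and 8.70 kb, these gave log2 PpGC values of 19.41, the highest of all members, and 17.68.

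**Figure D3:**
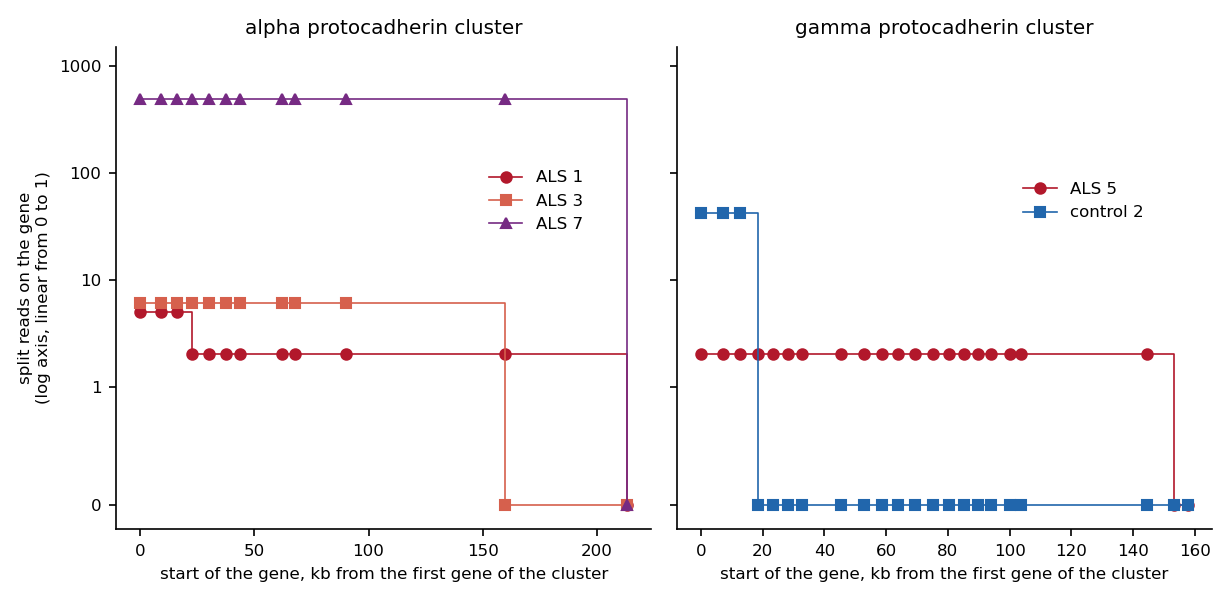
Split reads on each gene of the alpha (left) and gamma (right) protocadherin clusters against the start of the gene in kb from the first gene, for the samples with any (log axis, linear from 0 to 1, *Pcdha11* left out, genes without a row at 0). Counts stay level from gene to gene and drop in steps, at 487, 6 and 5 then 2 split reads for ALS 7, ALS 3 and ALS 1, and at 2 and 42 for ALS 5 and control 2.

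Counted per sample, members with an eccDNA numbered 19 ± 9.66 (SD, n = 9) in ALS, with a range of 8 to 30, and 2.60 ± 1.96 (SD, n = 10) in controls, with a range of 0 to 5. The groups did not overlap. The ratio of the means was 7.31, compared to 5.35 for all genes. The clusters contributed to this through nested genes, 12 in each of ALS 1 and ALS 7, 11 in ALS 3, 20 in ALS 5, 3 in control 2 and 0 in the others, besides 1 beta gene in each of ALS 3 and ALS 5. Without the clustered protocadherins, 12.7 ± 4.47 members (SD, n = 9; 7 to 18) in ALS stood against 2.30 ± 1.77 (SD, n = 10; 0 to 5) in controls, a ratio of 5.51. Relative to all genes with an eccDNA in a sample, these 31 members made up 0.993% ± 0.251 (SD, n = 9) in ALS and 1.06% ± 0.891 (SD, n = 10) in controls, which is less than the SD of either group apart. Control 1, which had the highest load of the controls with 723 genes, held 5 members, and ALS 6, which had the lowest load of the ALS samples with 694 genes, held 8.

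**Figure D4:**
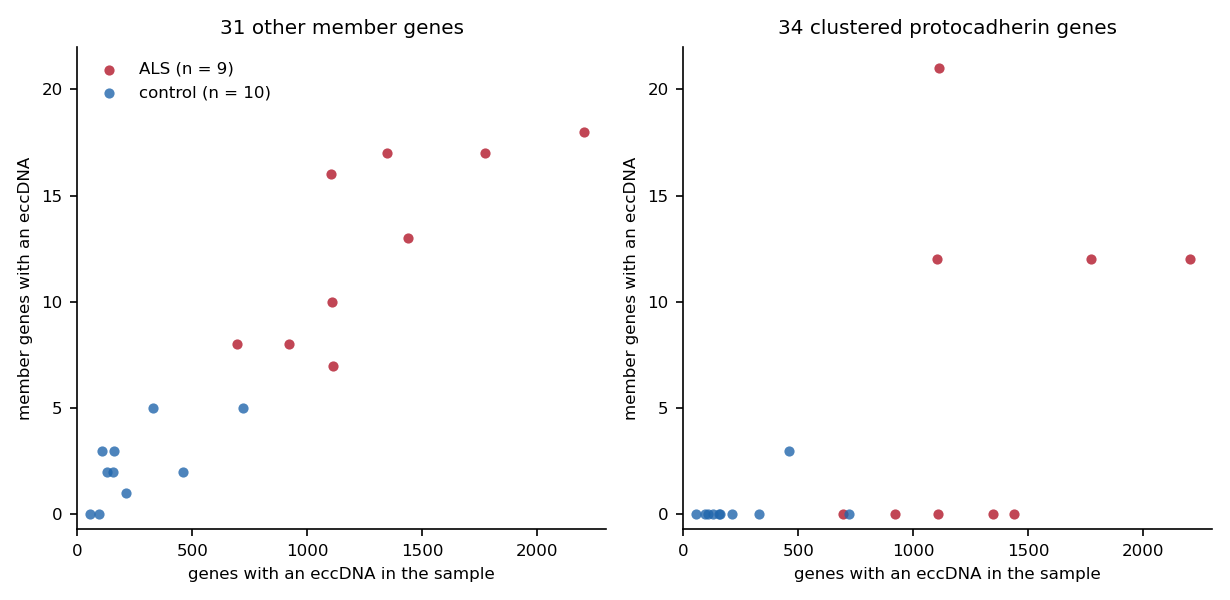
Members with an eccDNA per sample against the number of all genes with an eccDNA in that sample, for the 31 members outside the clusters (left) and the 34 clustered protocadherins (right). On the left, ALS samples hold 7 to 18 and controls 0 to 5 members over loads of 57 to 2204 genes, and on the right most samples are at 0.

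Recurrence across animals was highest for 3 members. An eccDNA was found in 8 ALS samples for these genes (*Cdh4*, *Cdh12* and *Cdh13*), or 4.62% of the members, against 0.444% of all genes with 8 or more. All 3 genes were occupied in 6 ALS samples and 2 of the 3 in the other 3 samples. Among the controls, 4 samples had a circle on 1 of the 3 genes and 6 had none. Of the 65 members, 49 (75.4%) held an eccDNA in ALS samples and in no control, against 75% of all genes. This was so for 31 of the 34 clustered protocadherins, most of which repeat the same few circles, and for 18 of the 31 members outside the clusters (58.1%). Conversely, 25 members (38.5%) were occupied in 1 sample of 19 only, compared to 66.2% of all genes. Of these, 19 are clustered protocadherins, and outside the clusters the count was 6 of 31 (19.4%). In 2 or more controls a circle was present for 6 members, *Cdh7*, *Cdh13*, *Cdh18*, *Ctnna2*, *Ctnna3* and *Pcdh9*, or 9.23% against 3.01% of all genes.

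The members are long genes, and occupancy followed length in them as in the table. Their median length was 157 kb, against 49.3 kb over all genes. Of the 9 members above 500 kb, 3 passed both thresholds (33.3%), and they held an eccDNA in 6.11 ± 1.36 (SD over genes) ALS samples and 1.67 ± 1.22 control samples. All 232 genes of this length class had 56 that passed (24.1%) and means of 5.07 ± 1.97 and 1.49 ± 1.29 samples. Between 200 and 500 kb, *Cdh4* was the 1 of 13 members that passed (7.69%), compared to 43 of 798 genes (5.39%). Up to 200 kb, 0 members passed by the methods' t-test. By that test the thresholds were met by 8 of 1331 genes from 100 to 200 kb and by 3 of 5728 genes up to 100 kb. Of the members up to 200 kb, *Cdh10*, *Cdh19* and *Ctnnbl1* had an unadjusted p under 0.05, and the last 2 of these passed by limma's moderated test. Over genes of every length, the shares at these 2 settings were 4.2% and 1.99%. *Cdh4* was the shortest of the 4 members that passed, and its 8 ALS samples stood against a mean of 2.74 ± 1.47 for genes of its length class. Members are not replicates, and no test was made of these shares.

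**Figure D5:**
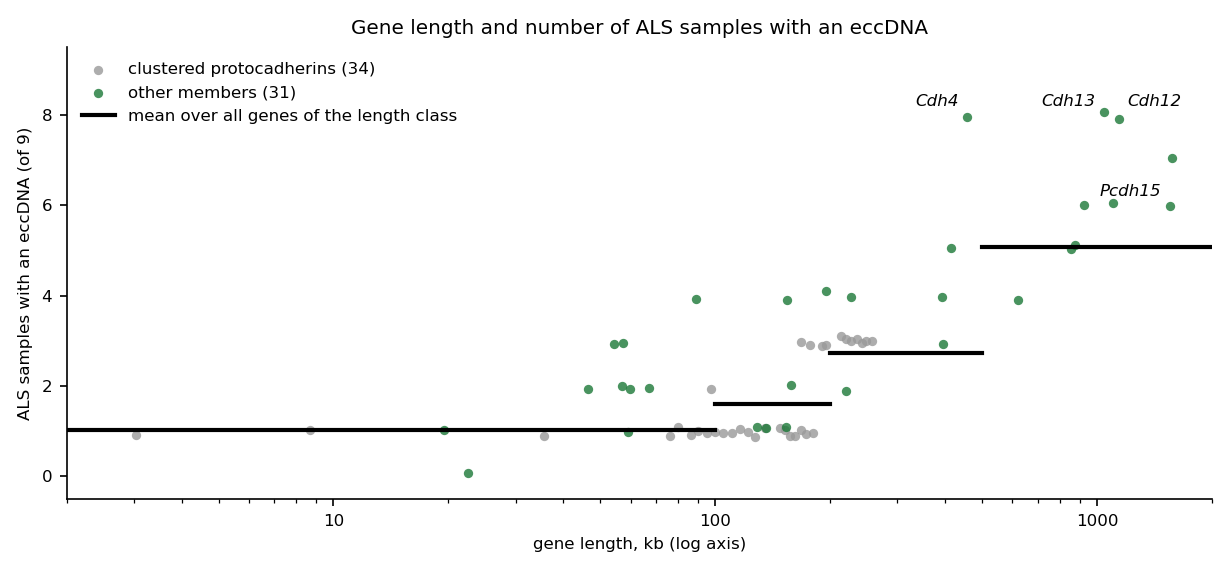
Number of ALS samples with an eccDNA (of 9) against gene length in kb (log axis) for the 34 clustered protocadherins (grey) and the 31 other members (green, shifted slightly to separate points), with the mean over all genes of each length class as a black line. The line rises from 1.03 samples up to 100 kb to 5.07 above 500 kb, and *Cdh4*, *Cdh12* and *Cdh13* lie above it at 8 samples.

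The genes that were missing tended to be short, though 20 members with a row were also no longer than 100 kb. Of 106 genes of these families in the annotation, 41 had no row in the table. They had a median length of 6.65 kb, which was 28.7 kb over the 18 that are not clustered protocadherins, and 3 of the 41 exceeded 100 kb, *Cdh6* (145 kb), *Cdh22* (123 kb) and *Pcdh19* (106 kb). *Cdh5*, the VE-cadherin of endothelium, is 42.9 kb long and was also without a row.

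How the occupied genes of an ALS sample were spread over the chromosomes differed between animals, for example from 1.56% to 13.5% of them on chromosome 1. Of the members, 16 lie on chromosomes 2 to 9 and X, of which *Cdh4* and *Cdh13* passed both thresholds, and 49 lie on chromosomes 1 and 10 to 19, of which *Cdh12* and *Pcdh15* passed. On chromosome 15, the share ranged from 1.80% in ALS 5 to 5.91% in ALS 8. ALS 5 had a circle on none of the 5 members there, *Cdh9*, *Cdh10*, *Cdh12*, *Cdh18* and *Ctnnd2*. On chromosome 10, which holds *Pcdh15*, *Ctnna3* and *Cdh23*, the share ranged from 2.36% to 8.77% and was highest in ALS 2, the sample with 1662 split reads on *Ctnna3* and 290 on *Cdh23*. The part of these shares in the results was not tested.

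With the load of each sample, its count of occupied genes, as a covariate, 0 members passed both thresholds for higher values in ALS by least squares, against 0.312% of all genes, and 4 members (*Cdh1*, *Cdh4*, *Cdh11* and *Cdh13*) had an unadjusted p under 0.05 (6.15%, against 4.02% of all genes). *Cdh11* is above 0 in ALS 6 alone and *Cdh1* has 52 of its 54 split reads there, the ALS sample of lowest load. The covariate follows the group, since 8 of 9 ALS samples exceed every control in it. The difference of *Cdh4* became 4.68 (p = 0.0184, permutation of the residuals, two-sided), that of *Cdh13* 4.40 (permutation p = 0.0443) and that of *Cdh12* 6.05 (permutation p = 0.0555). *Pcdh15* changed most of these 4 genes, to 0.47 (permutation p = 0.757). For *Ctnna2* the sign turned, to -6.10 (permutation p = 0.0339). *Ctnna3* had a difference of 5.68 (permutation p = 0.0633). The other members named by rule were at 2.84 (*Cdh19*), 1.64 (*Cdh8*), 1.51 (*Ctnnd2*), 1.38 (*Ctnnbl1*), 1.25 (*Pcdh9*), -0.39 (*Cdh16*), -0.95 (*Pcdhga1*, *Cdh20*), -0.86 (*Pcdh11x*), -1.34 (*Cdh10*), -2.51 (*Pcdh10*), -2.73 (*Cdh18*), -3.70 (*Pcdh7*) and -4.15 (*Cdh7*), with permutation p-values from 0.0553 to 0.799. Of the 60 members with a higher mean in ALS, 23 turned to lower (35.4% of the members, against 34.2% of all genes). *Cdh26*, singled out after its values were seen, was the 1 member lower in ALS by both thresholds in this fit, with -4.32 (1.54%, against 1.01% of all genes).

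Partners of the cadherins outside these families gave no gene that passed. A list of 55 other cadherin superfamily, junction and beta-catenin signalling genes had 31 in the table. Of these, 28 had a higher mean in ALS (90.3%, against 86.5% of all genes), with a median difference of 0.97 (1.19 over all genes). The count of genes that passed was 0 by the methods' t-test, against 1.33% of all genes. It was also 0 at an unadjusted p under 0.05 (4.2% of all genes) and by limma's moderated test (1.99%). With shares this low, a count of 0 does not set a list of 31 genes apart. The largest differences belonged to the calsyntenins *Clstn1*, 4.02 with 3 ALS samples and no control (exact permutation p = 0.0867), and *Clstn2*, 3.63 with 5 ALS samples and 1 control (exact permutation p = 0.0774). The receptor phosphatase *Ptprm*, which binds the cadherin complex, followed with 3.24, 6 ALS samples and 3 controls (exact permutation p = 0.0902). Of the 13 listed cadherin superfamily genes with a row, of 21 on the list and *Fat1*, *Fat3* and *Fat4* among them, 12 had a higher mean in ALS. The same held for 10 of the 10 junction partners with a row (18 listed) and 6 of the 8 genes of beta-catenin signalling with a row (16 listed).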

How the data were processed

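The deposited log2 values were made by the authors as log2(PpGC + 1) per gene and sample. Per their methods, exonuclease-treated DNA (400 ng, 7 days) was amplified by rolling circle amplification for 48 h and sequenced in pairs, circles were called with Circle_Finder on mm10, circles within 10 bp were merged, those under 2 split reads were removed, and the rest was intersected with GENCODE genes using bedtools. The weight scales values above 0 by gene length and leaves zeros as they are, so that occupancy can still follow length. Per the paper, the eccDNA pool was normalized to the total DNA of the sample. No step sets the values to a common load, so that load enters every difference. The GENCODE release is not given in the sources used here. Split reads were recovered with release M21, which placed 8089 of 8336 genes and gave whole numbers for 98.9% of values above 0.

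The methods' t-test (two-sided, equal variances) was run on every gene with the thresholds of the methods (difference above 1, p under 0.01). The methods do not state its sides, and two-sided was chosen here. For *Cdh4* the paper prints a smaller p than the two-sided 1.17e-05 of this t-test. With a one-sided p, 8 members passed. The text's exact permutation p-values are two-sided over all 92378 ways to assign 9 of 19 samples to ALS. The smallest possible exact p, if 1 gene alone had it, becomes 0.0902 after Benjamini-Hochberg adjustment. The covariate fit permuted residuals with 100000 resamples (seed 20). Alternatives were limma's moderated test, the exact test, Benjamini-Hochberg adjustment, p under 0.05, a one-sided p, a replicate block, the load covariate, equal totals, a pseudocount of 100, no length scaling, a minimum of 3 samples, presence or absence, a minimum log2 PpGC of 8, chromosomes 2 to 9 and X, leaving out each sample and, chosen after seeing the data, leaving out the clustered protocadherins.

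Members and lists were chosen with earlier results of these data known. Genes were named by rule: *Cdh4*, *Cdh13*, *Ctnna2* and *Ctnnd2*, members that passed, members with an eccDNA in at least 4 samples or at least 2 controls, the 3 lowest differences, and of the other list those that passed and the 3 largest differences. Further members were described after their values were seen. Tested on simulated data of 8336 genes, the per-gene test found 191 of 200 changed genes and called 2 of 8136 unchanged genes. In the simulation the unchanged genes had the same load in both groups, unlike the real samples. These counts therefore check the code and do not give the rate of false calls in these data. Python 3.11.15, NumPy 2.4.6, pandas 2.3.3, SciPy 1.17.1, matplotlib 3.10.9, R 4.3.3 and limma 3.58.1 were used. Sequences were not printed, since the values give no circle positions.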

Additional observations from a re-analysis of the deposited data

Results flagged for a closer look

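Of 39 groups of values examined with Dixon's criterion, 11 had a sample set apart, and 10 of these are groups in which a single sample is above 0. Chance sets apart about 1 in 20 groups, and groups of zeros with 1 value meet the criterion by construction. Control 7 was set apart for *Cdh12* (log2 PpGC 9.16) and for *Pcdh10* (8.28), and control 1 for *Cdh8* (6.52) and *Pcdh7* (4.48). Control 10 stood out for *Cdh16* (9.21), control 9 for *Cdh20* (6.89) and control 4 for *Ctnnd2* (7.19). For *Ctnna3*, control 3 (7.67) was set apart from the next control at 3.62. For *Pcdhga1*, the only value above 0 was 5.65 in ALS 5 and 10.02 in control 2 within their groups. Control 2 was also the only control with clustered protocadherins, 3 in number, which share the same 42 split reads.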

How the results depend on the processing

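The count of 4 members that passed was 7 by limma's moderated test (1.99% of all genes), 10 at an unadjusted p under 0.05 (4.2%), 8 with a one-sided p (2.27%), 1 after Benjamini-Hochberg adjustment (0.072%), 1 with a pseudocount of 100 (0.108%), 0 with load as a covariate (0.312%) and 2 of 16 on chromosomes 2 to 9 and X (1.48%). Leaving out each sample gave 4 to 7, with 7 without ALS 6 (1.49% of all genes). The median difference of 2.09 was 0.97 without length scaling and 0.51 with a pseudocount of 100, 1.20 with the load covariate, and 1.54 to 2.33 when each sample was left out. The count of 60 members with a higher ALS mean was 37 with the load covariate, 15 of 16 on chromosomes 2 to 9 and X and 29 of 31 without the clustered protocadherins, and 42 to 63 when each sample was left out. The difference of 16.4 members per sample was 5.11 at a log2 PpGC of at least 8 and 5.21 on chromosomes 2 to 9 and X, where fewer values or genes are counted, and 15.0 to 17.8 when each sample was left out. The other alternatives left these results within 1.5 times or within the spread between samples.

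With the load covariate 23 members turned to lower in ALS. Of these 7 are named by rule, *Cdh10* (-1.34), *Cdh18* (-2.73), *Cdh20* (-0.95), *Ctnna2* (-6.10), *Pcdh10* (-2.51), *Pcdh11x* (-0.86) and *Pcdh7* (-3.70), and the others were *Pcdhb14* (-6.19), *Cdh26* (-4.32), *Cdh23* (-1.95), *Cdh17* (-0.49), *Ctnnal1* (-0.052) and 11 alpha protocadherins. With a pseudocount of 100, *Cdh7* (0.017) and *Ctnna2* (-0.067) turned. *Pcdhga1* turned by presence or absence (difference of shares 0.011), and without control 2, to 0.63. Leaving out each sample gave -1.0 to 0.63 for *Pcdhga1* and -1.58 to 0.15 for *Cdh7*, which turned without control 3, control 7 or control 8. The cause was not tested. For the 4 members that passed, the exact permutation p stayed under 0.01 when each sample was left out, at most 0.000411 for *Cdh4*, 0.00162 for *Cdh13*, 0.00411 for *Cdh12* and 0.00905 for *Pcdh15*. Under other alternatives calls were lost. *Cdh13* had an exact permutation p of 0.0158 with equal totals and 0.0198 by presence or absence (Fisher's exact test). With a pseudocount of 100, only 1 member met both thresholds by the methods' t-test, against 4 in the main setting. The exact permutation p with this pseudocount was 0.0189 for *Cdh12*, 0.000119 for *Cdh4* and 0.000238 for *Cdh13*. None of the 4 stayed under 0.01 with the load covariate.

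Samples of the same replicate number did not deviate together (correlations of -0.021 to 0.023 over 9 pairs). Since 91.1% of all values are 0, this measure could miss a pairing, and none was assumed in the main tests. With the replicate number as a block, 4 members passed (0.648% of all genes) and the median difference was 2.07, while the exact sign-flip p was 0.0156 for *Cdh12* and 0.0313 for *Pcdh15*. *Cdh4* rests on 2 split reads, the caller's minimum, in 3 of its 8 ALS samples, and the effect of sequencing depth was not tested.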
